A study of Mus musculus with 6 samples.

Results

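Hepatocytes do different work according to where they sit between the portal tract and the central vein of a liver lobule, and this division is called zonation. Of 9 genes commonly used to mark the zones, 7 could be read in liver RNA of mice on a high-fat or a low-fat diet. They were found as every probe set whose single gene symbol in the platform annotation was one of the 9, which gave 9 of the 12488 probe sets of the table. The pericentral genes were Glul, Oat, Cyp2e1, Cyp1a2 and Lect2, all 5 with a probe set. Of the 4 periportal genes, Cyp2f2 and Hal had a probe set, while Sds and Gls2 had none in the table used and are not analysed here. The periportal side therefore rests on 2 genes.

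All samples were livers of C57BL/6 mice, a common inbred strain. The high-fat group had been kept for 12 weeks on a Western style diet rich in fat, and the low-fat group for 12 weeks on a diet low in fat. Each diet had 3 Affymetrix arrays, called HF1, HF2 and HF3 and LF1, LF2 and LF3 by the numbers in their titles. The labels list LDL receptor deficiency and atherosclerosis among their keywords but give these 6 samples no allele other than the strain, and they give no age, sex or time of day. They call the arrays of a diet replicates without saying whether each is 1 mouse or a pool, so p-values measure the spread between these arrays.

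In zonation, blood runs from the portal tract to the central vein, and oxygen, nutrients and hormones fall along the way. Periportal hepatocytes are known for gluconeogenesis, urea synthesis and amino acid breakdown, and pericentral hepatocytes for glutamine synthesis, bile acid synthesis and the oxidation of foreign compounds. Wnt ligands and R-spondin from endothelial cells of the central vein maintain the pericentral programme through beta-catenin and the TCF/LEF transcription factors.

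The deposited values are linear intensities, scaled by whole array: with 2% of the probe sets trimmed at either end, the mean lay between 499.6 and 499.9 on all 6 arrays. Dim values were raised to a floor of 68.9, which is the 30th percentile over the table, before taking log2, and the 8950 probe sets above it on at least 3 arrays were tested with limma. The hepatocyte markers were strong, with albumin between 34920 and 49245. Of 7 bile duct markers with a probe set, the defining ones Krt19, Krt7 and Epcam were too dim to be tested. The brightest probe set read 49245, 44007 and 39314 on HF1, HF2 and HF3 and 51255, 42302 and 34920 on the low-fat arrays, so in both diets the brightest reading was lowest on array 3. The number of arrays limits the precision. In whole liver, fewer cells of a zone and less RNA per cell cannot be told apart.

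On the high-fat diet, the pericentral genes had log2 changes of both signs and both periportal genes lay below 0. Of the 8 tested member probe sets, 0 passed limma at the 0.05 level of the adjusted p, where 0.827% of all tested probe sets passed. Unadjusted p-values under 0.05 were reached by 3 of the 8, against 9.07% of all tested probe sets, namely those of Lect2, Oat and Hal. High-fat and low-fat arrays were fully apart for 3 of the 8, Lect2, Oat and Cyp2f2, against 14.1% of all tested probe sets. Lect2 read 1.50-fold higher on the high-fat diet, while Hal, Oat and Cyp2f2 had ratios of low-fat over high-fat diet of 1.82, 1.42 and 1.31.

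**Figure D1:**
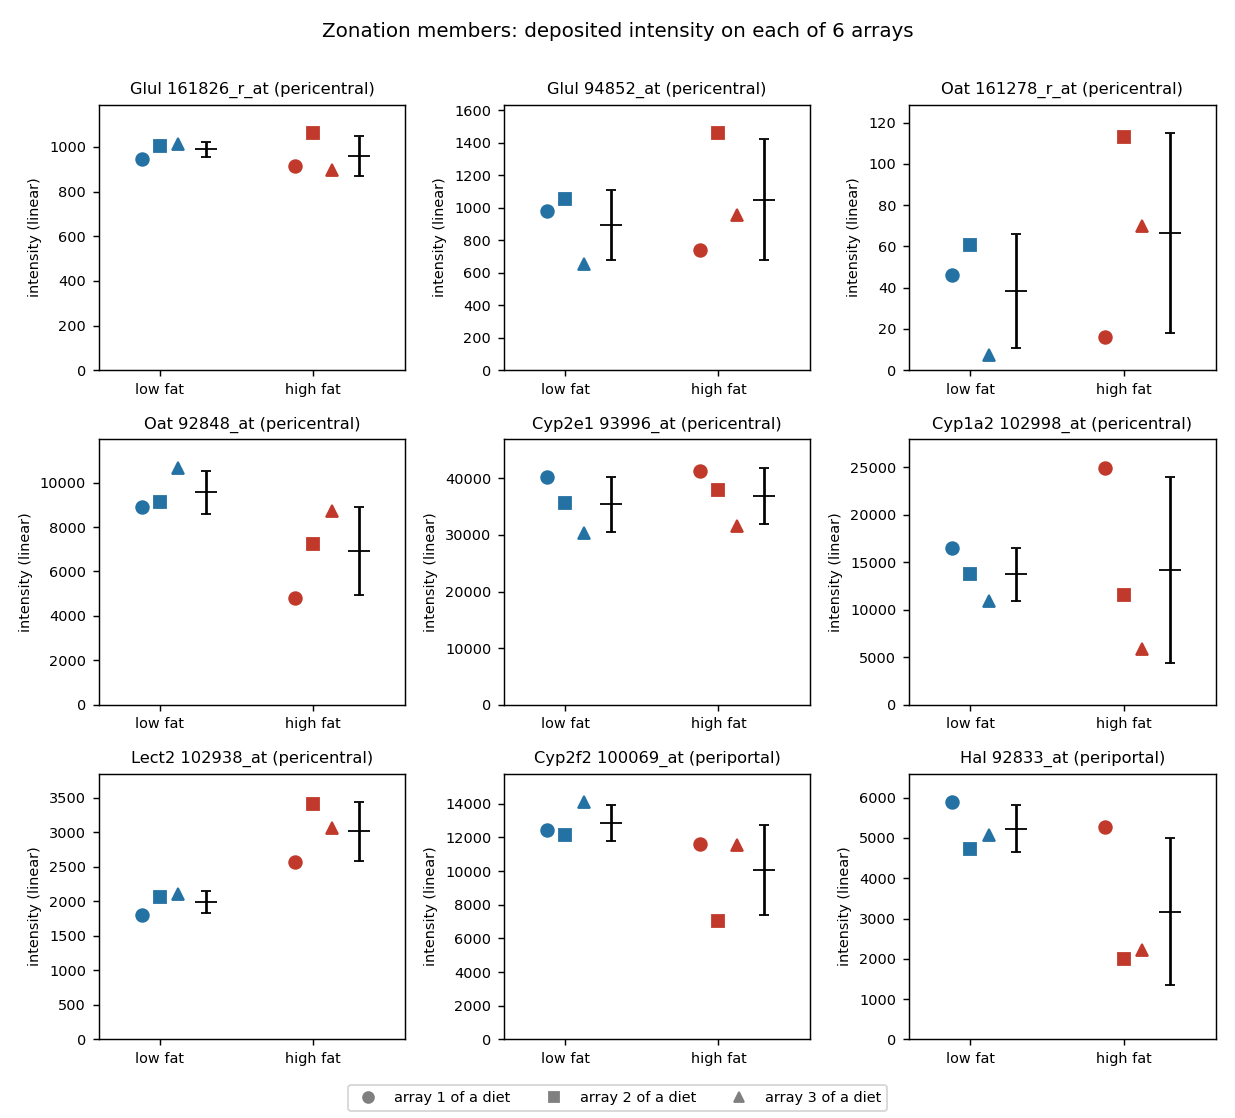
Deposited linear intensity of each of the 9 member probe sets on every array, with the low-fat arrays in blue and the high-fat arrays in red; marker shape gives the array number within a diet, and the black bar is the mean ± SD of 3 arrays. Lect2 is higher on all 3 high-fat arrays, Hal is low on HF2 and HF3 but not on array 1, and Cyp1a2 is widely spread on the high-fat diet.

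Glul encodes glutamine synthetase, which takes up the last ammonia in the innermost pericentral hepatocytes. One probe set (161826_r_at) read 916, 1061 and 897 on HF1, HF2 and HF3 and 948, 1005 and 1011 on the low-fat arrays. The diets overlapped, and the log2 change was -0.049 with a 95% interval of -0.34 to 0.24 (limma, adjusted p = 0.965). The other (94852_at) read 739, 1460 and 955 on the high-fat arrays and 982, 1052 and 652 on the low-fat arrays. Its arrays overlapped too, and its log2 change was 0.20 with an interval of -0.40 to 0.81 (limma, adjusted p = 0.904). The probe sets therefore differed in sign, and neither passed the test. The suffix of the first marks relaxed rules of probe selection. Without HF2 the second gave -0.062, and without LF3 it gave -0.0095.

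Oat encodes ornithine aminotransferase, a mitochondrial enzyme that passes nitrogen from ornithine towards glutamate. Its main probe set (92848_at) read 4786, 7250 and 8727 on HF1, HF2 and HF3 against 8880, 9134 and 10671 on the low-fat arrays. Every high-fat array lay below every low-fat array, the closest pair being 8727 and 8880. The mean was 6921 ± 1991 for the HF arrays and 9562 ± 969 for the LF arrays (SD, n = 3 each). The log2 change of -0.51 had a 95% interval of -0.98 to -0.034 and did not pass (limma, adjusted p = 0.506). HF1 was the lowest of the 6, and without it the log2 change was -0.26. The second Oat probe set (161278_r_at) lay between 7.4 and 113 and exceeded the floor on 2 arrays, so it was not tested.

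Cyp2e1 encodes the ethanol-oxidising cytochrome P450 of pericentral hepatocytes. It read 41259, 37941 and 31500 on HF1, HF2 and HF3 and 40175, 35596 and 30379 on the low-fat arrays. The diets overlapped almost completely, and array 3 was the lowest of either diet. The log2 change was 0.061 with a 95% interval of -0.35 to 0.47 (limma, adjusted p = 0.972), and it turned to -0.021 under quantile normalization, to -0.024 without HF1 and to -0.044 without LF3. These intensities lie close to the top of each array, where the arrays also differ. After quantile normalization, which gives all arrays one distribution, the highest Cyp2e1 value of a diet was 1.08 times the lowest on the high-fat and 1.06 times on the low-fat diet, in place of 1.31 and 1.32 times as deposited. A probe set near the top of every array is given nearly equal values by this step, whatever the source of its spread. That source was not tested.

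Cyp1a2 encodes a pericentral cytochrome P450 that oxidises caffeine and aromatic amines and is induced through the aryl hydrocarbon receptor. It read 24967, 11611 and 5884 on HF1, HF2 and HF3 and 16502, 13821 and 10899 on the low-fat arrays. The high-fat arrays lay both above and below all low-fat arrays. The highest high-fat array was 4.24 times the lowest, against 1.51 times on the low-fat diet, and 3.65 against 1.37 times after quantile normalization. The residual SD of Cyp1a2 on the log2 scale, 0.77, was larger than that of 96.7% of tested probe sets. Its log2 change of -0.18 had a 95% interval of -1.16 to 0.79 (limma, adjusted p = 0.960), so these arrays leave a change of either sign within the interval. Without HF1 it was -0.71 and without HF3 it was 0.33. Without LF3 it was -0.34, and without LF1 it was -0.039.

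Lect2 encodes a secreted protein of hepatocytes whose transcript is a known target of beta-catenin in mouse liver. It read 2568, 3411 and 3065 on HF1, HF2 and HF3 against 1810, 2066 and 2109 on the low-fat arrays. All 3 high-fat arrays lay above all 3 low-fat arrays. The mean was 3015 ± 424 for the HF arrays and 1995 ± 162 for the LF arrays (SD, n = 3 each), and the log2 change was 0.59 ± 0.14 (SE) with a 95% interval of 0.28 to 0.90. It did not pass with an adjusted p of 0.124 (limma), although its unadjusted p of 0.00192 ranked 139 among 8950 probe sets. Over the single arrays left out the log2 change lay between 0.50 and 0.70.

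Hal encodes histidase, which starts the breakdown of histidine and is periportal. It read 5277, 2005 and 2228 on HF1, HF2 and HF3 against 5888, 4735 and 5082 on the low-fat arrays. HF1 lay within the low-fat range, and HF2 and HF3 lay far below it. The mean was 3170 ± 1828 for the HF arrays and 5235 ± 592 for the LF arrays (SD, n = 3 each). The log2 change of -0.86 ± 0.32 (SE) had a 95% interval of -1.58 to -0.15 and did not pass (limma, adjusted p = 0.428). Without HF1 it was -1.30 with an adjusted p of 0.00602 (limma). Over the other arrays left out in turn, it did not pass, and the adjusted p was 0.766 without HF2.

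Cyp2f2 encodes a cytochrome P450 that in mouse liver is a standard periportal marker. It read 11641, 7005 and 11545 on HF1, HF2 and HF3 against 12416, 12117 and 14096 on the low-fat arrays. The diets did not overlap, but HF1 and HF3 lay just under the lowest low-fat array, and HF2 far below it. The mean was 10064 ± 2649 (SD, n = 3) against 12876 ± 1066 (SD, n = 3), and the log2 change of -0.39 had a 95% interval of -0.85 to 0.066 (limma, adjusted p = 0.637). Without HF2 the log2 change was -0.15. That array also had the highest sum of 7 pancreatic acinar markers, at 11555 against 4140 and 2080 on HF1 and HF3. LF2, with the highest sum of its diet at 6636 against 2994 and 2175, had the lowest Cyp2f2 of its diet. Hal was also lowest on HF2 and LF2 within each diet, at 2005 and 4735. On HF3, with the lowest acinar sum of its diet, Hal read 2228. The part of these transcripts in the Cyp2f2 and Hal values was not tested.

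**Figure D2:**
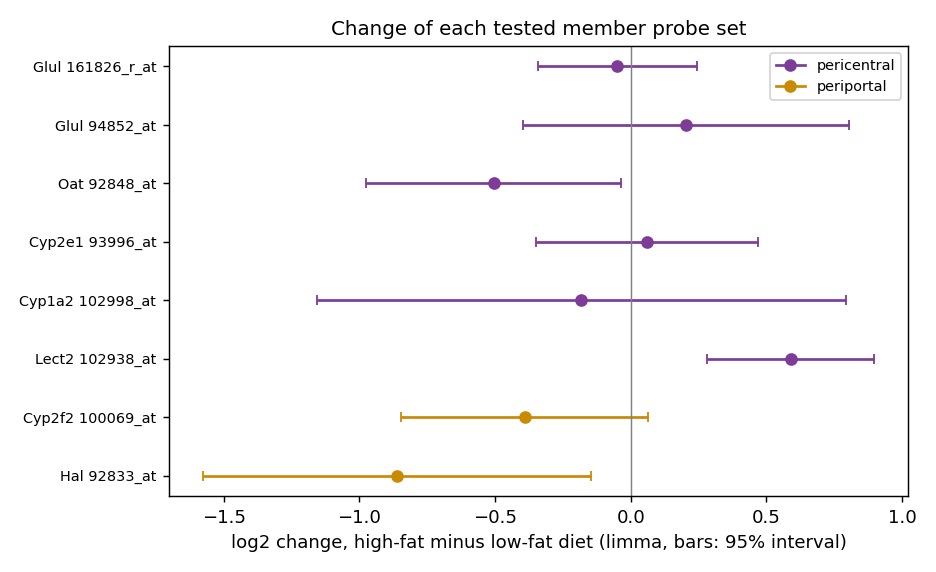
Log2 change, high-fat minus low-fat diet, of the 8 tested member probe sets (points) with the 95% interval from limma (bars), coloured by zone. The intervals of Lect2, Oat and Hal lie on one side of 0, and the intervals of both Glul probe sets, Cyp2e1, Cyp1a2 and Cyp2f2 include it.

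Set by zone, with the probe set of the highest mean log2 value for each gene, 2 of 5 pericentral genes had a log2 change above 0 and 3 below, and both periportal genes had one below 0. The median log2 change was -0.049 for the pericentral and -0.63 for the periportal genes, beside 0.0077 for all 6557 tested genes, whose quartiles were -0.17 and 0.19. The pericentral median, which is the value of the Glul probe set 161826_r_at, thus lay between the quartiles of all genes and the periportal median below the lower one. With all tested probe sets of a gene averaged, or probe sets with suffixes left out, the pericentral median was 0.061. No p-value is given for these medians, because the members were chosen with results known. The difference between the medians, pericentral minus periportal, was 0.58. It was 0.25 without HF2 and 0.88 without HF1. The periportal median was -0.38 without HF2, and the pericentral median was 0.17 without HF3 and -0.12 without HF2.

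Each gene was then centred on its mean over the 3 low-fat arrays, so that no probe set's level was set against another's, and averaged over the zone. The pericentral mean was 0.076, 0.075 and -0.20 on HF1, HF2 and HF3, and 0.036, 0.013 and -0.049 on the low-fat arrays. These small means hide opposed members: on HF1 Cyp1a2 stood at 0.88 and Oat at -0.99, and on HF3 Lect2 stood at 0.62 and Cyp1a2 at -1.20. The periportal mean was -0.062, -1.13 and -0.69 on the high-fat arrays and 0.063, -0.11 and 0.048 on the low-fat arrays. On HF3 this mean came mostly from Hal, at -1.23, while Cyp2f2 stood at -0.15, close to its -0.14 on HF1. On HF2 both were low, at -1.38 for Hal and -0.88 for Cyp2f2. Pericentral minus periportal was 0.14, 1.20 and 0.49 on the high-fat arrays and -0.027, 0.12 and -0.097 on the low-fat arrays. HF1 lay next to LF2 on this scale, and the spread on the high-fat diet (SD 0.54, n = 3) was wider than on the low-fat diet (SD 0.11, n = 3), a difference in spread that was not tested.

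**Figure D3:**
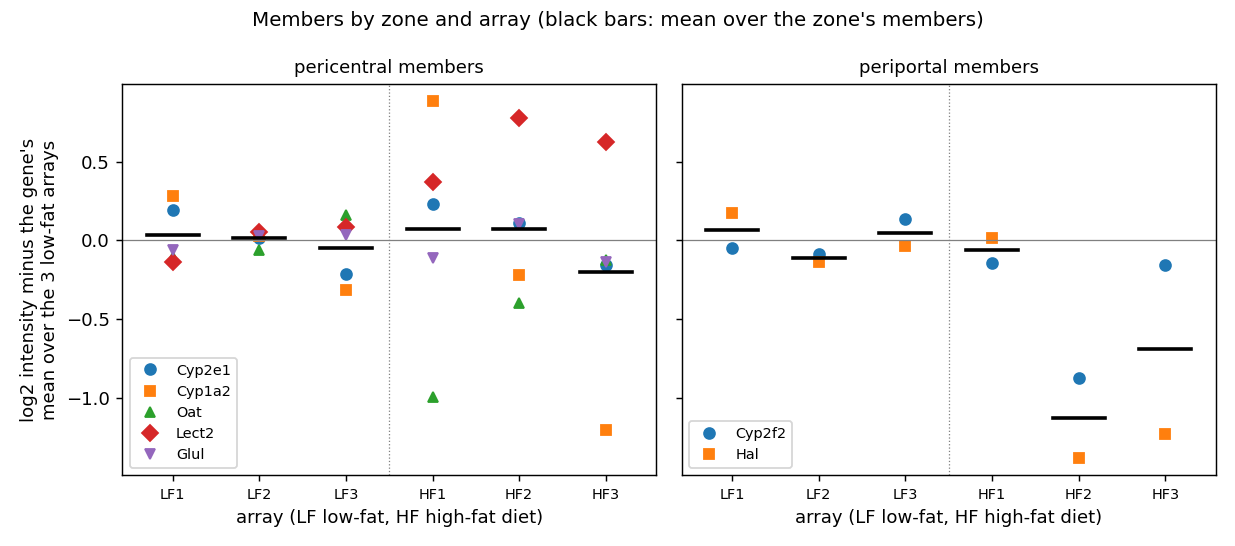
Log2 intensity of each member gene minus its own mean over the 3 low-fat arrays, for the 5 pericentral genes (left) and the 2 periportal genes (right), with the mean over the zone as a black bar; LF marks low-fat and HF high-fat arrays. The pericentral members scatter to both sides of 0 on the high-fat arrays, and both periportal members lie below -0.1 on HF2 and HF3 but not on HF1, where Hal is at 0.017.

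Promoter sequence was examined because the TCF/LEF factors act on pericentral genes and the aryl hydrocarbon receptor on Cyp1a2. RefSeq promoters of all 7 genes were found in the table for build GRCm38.p6, and the 250 bases before each start were searched on both strands for the TCF/LEF letters ATCAAAG and for the receptor's core letters GCGTG, motifs chosen with the sequences in view. The TCF/LEF letters in this exact form stood in 2 of the 7, Lect2 and Hal, against 3.21% of 32851 promoters. Other forms of the motif were not searched, so the other windows are not shown to lack one. The form TTCAAAG stands in the window of Cyp1a2, and its reverse complement in that of Cyp2e1. Its share over all promoters was not counted. The receptor core stood in the same 2 genes, against 28.2% of all promoters, and not in this window of Cyp1a2. Lect2 and Hal are also the members with the smallest p of each zone, so their sequences are shown, 5′ to 3′ on the gene's strand, with both motifs in capitals.
Lect2, chr13:56548539-56548788, minus strand: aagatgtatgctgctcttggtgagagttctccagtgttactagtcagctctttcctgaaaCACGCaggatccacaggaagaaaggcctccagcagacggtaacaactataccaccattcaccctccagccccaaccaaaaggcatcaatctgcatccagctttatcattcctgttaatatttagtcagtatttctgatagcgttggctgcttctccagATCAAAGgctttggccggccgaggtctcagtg
Hal, chr10:93488518-93488767, plus strand: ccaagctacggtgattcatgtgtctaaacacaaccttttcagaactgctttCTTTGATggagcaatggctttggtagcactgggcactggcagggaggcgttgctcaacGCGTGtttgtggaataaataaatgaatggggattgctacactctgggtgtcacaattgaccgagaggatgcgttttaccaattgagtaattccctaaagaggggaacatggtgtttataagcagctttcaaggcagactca
The TCF/LEF letters begin 32 bases before the start in Lect2, and their reverse complement begins 199 bases before it in Hal. The genes belong to opposite zones and had log2 changes of opposite sign. A match of letters is a description of the sequence, not a site shown to be used.

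Further zonated genes were read from a list of 28 for the pericentral side, of which 16 were tested. There 1 rose and 15 did not pass, where 0.915% of all 6557 tested genes passed. Unadjusted p-values under 0.05 were reached by 2 of the 16, against 9.5% of all genes, and 12 had a log2 change below 0. The median was -0.068, and it was -0.17 without HF2, -0.11 without LF3 and -0.011 without LF1. Aldh3a2, a fatty aldehyde dehydrogenase, read 4226, 5993 and 6416 on HF1, HF2 and HF3 against 2672, 2844 and 2701 on the low-fat arrays, with no overlap. The log2 change of 0.99 ± 0.16 (SE) passed (limma, adjusted p = 0.0270), and the call was lost without any one array other than HF1. A second Aldh3a2 probe set had a log2 change of 1.14 and did not pass (limma, adjusted p = 0.251). Cyp7a1, the rate-limiting enzyme of bile acid synthesis, had the next smallest p. It read 148, 265 and 360 on the high-fat arrays and 836, 315 and 1563 on the low-fat arrays, where the diets overlapped, and its adjusted p was 0.366 (limma).

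Of a list of 24 further periportal genes, 19 were tested, 0 passed limma's test and 4 had an unadjusted p under 0.05, against 0.915% and 9.5% of all tested genes. A log2 change below 0 was found for 14 of the 19, where 48.7% of all tested genes lay below 0, and the median was -0.21. Pck1, the cytosolic phosphoenolpyruvate carboxykinase of gluconeogenesis, read 3625, 2939 and 3525 on HF1, HF2 and HF3 against 4802, 6069 and 6487 on the low-fat arrays. The diets did not overlap, and the log2 change of -0.78 just missed the threshold (limma, adjusted p = 0.0560). Tat, the tyrosine aminotransferase, read 13797, 9815 and 10582 on the high-fat arrays against 18010, 19400 and 21258 on the low-fat arrays, again without overlap (limma, adjusted p = 0.0742). The urea cycle genes of the list, which were singled out after their values were seen, had overlapping arrays and did not pass. Their log2 changes were -0.21 for Cps1, -0.23 for Otc, 0.038 for Ass1, -0.78 for Asl and -0.26 for Arg1. A second Asl probe set gave -0.19. The list's median was -0.36 without HF1 and -0.11 without HF3. No test of the difference between the pericentral and periportal lists was made, since both were drawn up with earlier results known.

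**Figure D4:**
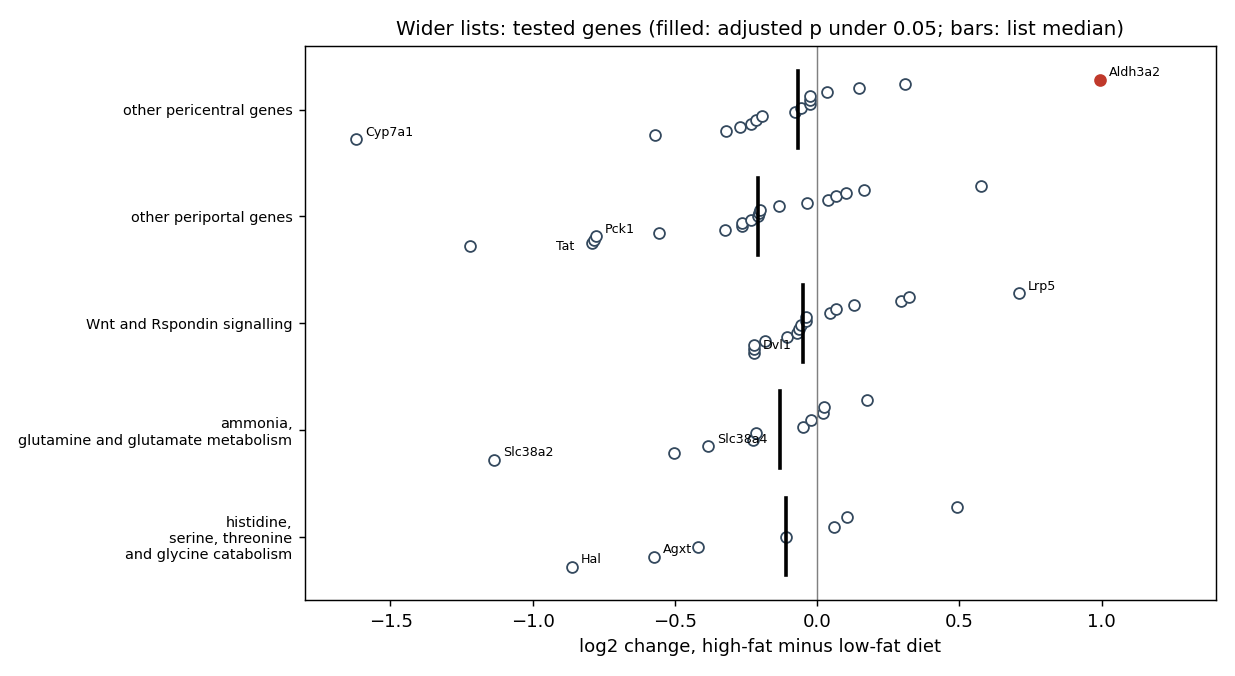
Log2 change, high-fat minus low-fat diet, of every tested gene of 5 wider lists (points; filled where the adjusted p is under 0.05), with the list median as a vertical bar and the genes with the smallest p of a list named. Aldh3a2 is the only filled point, and the periportal list has the lowest median, at -0.21.

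The genes around the members' own reactions were read next. Of 10 tested genes for ammonia, glutamine and glutamate, which include Glul and Oat, 0 passed limma's test, 3 had an unadjusted p under 0.05 and 7 lay below 0, with a median of -0.13. Over all tested genes the shares were 0.915%, 9.5% and 48.7%. Both genes with the smallest p encode amino acid transporters of the cell surface. Slc38a2 read 347, 337 and 542 on HF1, HF2 and HF3 against 562, 925 and 1287 on the low-fat arrays (limma, adjusted p = 0.232). Slc38a4 read 8978, 8023 and 9230 against 11972, 10651 and 11577 (limma, adjusted p = 0.351). In neither did the diets overlap, as in 14.5% of all tested genes. Of 7 tested genes for histidine, serine, threonine and glycine, which include Hal, 0 passed limma's test, 2 had an unadjusted p under 0.05 and 4 lay below 0, beside the same shares over all genes. The smallest p was that of Agxt, the alanine-glyoxylate aminotransferase, followed by that of Hal. Agxt read 2143, 1720 and 1384 on the high-fat arrays against 2634, 2614 and 2440 on the low-fat arrays, with no overlap (limma, adjusted p = 0.251).

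Of 16 tested genes of Wnt and R-spondin signalling, 0 passed limma's test, 0 had an unadjusted p under 0.05 and 10 lay below 0, with a median of -0.049, beside the same shares over all genes. Lrp5, a Wnt co-receptor, read 358, 364 and 273 on HF1, HF2 and HF3 and 355, 186 and 124 on the low-fat arrays (limma, adjusted p = 0.640). Dvl1, which relays the Wnt signal in the cytoplasm, had a log2 change of -0.22 (limma, adjusted p = 0.702). Rspo3, Wnt2 and Wnt9b, the ligands of the central vein, had no probe set in the table used. Axin2 and Tbx3, 2 beta-catenin targets of the pericentral list, had log2 changes of 0.036 and 0.31 and overlapping arrays, and were also chosen after their values were seen.

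Markers of other liver cells were summed on each array. The 12 tested macrophage markers summed to between 11516 and 13813 on the high-fat and between 8621 and 11469 on the low-fat diet, ranges that lie just apart, with 11 of 12 log2 changes above 0 and 0 past limma's threshold (3 with an unadjusted p under 0.05). Over all tested genes 9.5% had such a p and 48.7% lay below 0. The ranges of 11 endothelial markers, 5186 to 6316 and 5443 to 5853, overlapped, as did those of 10 stellate cell markers, 7859 to 9923 and 7471 to 7951. The 4 tested genes of the bile duct list summed to 5738 to 6664 on the high-fat and 4885 to 6056 on the low-fat diet. Over all arrays Krt18 read 2342 to 3507 and Krt8 2224 to 3261, while Cldn4 and Cftr reached 242 and 240. Without the defining markers, this sum, mostly Krt18 and Krt8, is not a measure of bile duct cells. The 7 lymphocyte markers summed to 839 to 1460 and 928 to 1372. The 11 hepatocyte markers overlapped, at 186384 to 222620 and 169866 to 217563. The part of other cells in the members' values was not tested.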

How the data were processed

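The deposited table gives, as the authors' linear intensity, 1 value per array for 12488 Affymetrix probe sets. Software, background correction and genome build were not given in the sources used here. These values show a scaling of whole arrays, which was kept. Genes were named through the platform annotation: 10855 probe sets had 1 symbol, 396 several and 1237 were not listed, and 10839 were matched by gene ID to RefSeq genes of GRCm38.p6.

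The 66 control probe sets were left out. Log2 intensities were floored at the 30th percentile, and probe sets above it on at least 3 arrays were fitted with limma 3.58.1 in R 4.3.3 (eBayes with a trend on intensity). The contrast was the high-fat against the low-fat diet, two-sided, with Benjamini-Hochberg adjustment over 8950 probe sets. Where a gene had several probe sets, the one with the highest mean log2 value stood for it. All member probe sets were named, and in each wider list up to 4 genes past the threshold or, with fewer than 2, those with the smallest p. Members and lists were chosen with earlier results of these data known. The fit was checked on simulated data. Alternatives changed the normalization, floor, filter, variance model, pairing, probe sets and arrays.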

Additional observations from a re-analysis of the deposited data

How the results depend on the processing

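Of 159 values of the 8 tested member probe sets under 21 alternatives, 149 kept their sign and their side of the threshold, 8 changed sign and 2 passed it. A moved floor, another filter, no trend, robust fitting, the block and the looser threshold left every member's log2 change as it was. The sign was therefore fixed under these alternatives. The values that changed sign were those of Cyp2e1 (-0.021 with quantile normalization, -0.024 without HF1, -0.044 without LF3), the Glul probe set 94852_at (-0.062 without HF2, -0.0095 without LF3, up to 0.43 without HF1), Cyp1a2 (0.33 without HF3, down to -0.71 without HF1, 0.17 without HF3 and LF3 together) and the Glul probe set 161826_r_at (0.014 without HF3 and LF3 together). Leaving out HF3 and LF3 together was chosen after seeing the data, as was running the wider lists under every alternative. Those that passed were Hal without HF1 and Lect2 with the replicate number as a block (limma, adjusted p = 0.0426). Deviations from the diet means correlated with r = 0.31 for HF3 with LF3, and with 0.071 and 0.11 for the other same-numbered pairs. Differently numbered arrays ran from -0.21 to 0.11. Whether same-numbered arrays were paired was not tested. The blocked log2 change of Lect2 was the same 0.59. Over the alternatives the adjusted p of Lect2 ran from 0.0426 to 0.418 and that of Hal from 0.00602 to 0.819.

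The number of probe sets called, 74 of 8950, was 8 without a filter, 20 without the trend of the variance, 120 at an adjusted p of 0.10, 38 without HF3 and LF3, and 27 to 76 with single arrays left out (28 without HF2, 31 without LF1, 27 without LF2 and 43 without LF3). It was 103 with the replicate number as a block. With single arrays left out, the median log2 change ran from -0.12 to 0.17 for the pericentral members, from -0.91 to -0.38 for the periportal members, from 0.25 to 0.88 for their difference, from -0.17 to -0.011 for the other pericentral genes and from -0.36 to -0.11 for the other periportal genes. Aldh3a2 also lost its call without a filter, without the trend and without HF3 and LF3, and Pck1, with a log2 change of -0.78, passed under 6 alternatives, with adjusted p-values from 0.0367 to 0.289 over all (limma). Tat also passed under 6 (0.0263 to 0.329), Slc7a2, an amino acid transporter of the periportal list with an adjusted p of 0.0784, under 4 (0.00792 to 0.466) and Slc38a2 under 1 (0.0357 to 0.633). For Pck1, Tat and Slc7a2 these counts include the looser threshold of 0.10, under which their fit was unchanged. The cause was not tested.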

Other observations

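Of the 11 genes of the wider zonation lists with a mean intensity of at least 10000, 7 read lowest on array 3 in both diets, as did 57.7% of all 111 tested genes that bright. Cyp3a11, G6pc, Gstm1 and Tat did not, and Gstm1 read 25088, 23921 and 25122 on HF1, HF2 and HF3. Pigr, the immunoglobulin receptor of the periportal list, read 25945, 21150 and 14514 on HF1, HF2 and HF3 and 27500, 22858 and 19275 on the low-fat arrays. Car3, a carbonic anhydrase of the pericentral list, read 23622, 19815 and 13763 on the HF arrays and 21611, 20413 and 17171 on the LF arrays. Cps1 read 29992, 23351 and 20701 on the HF arrays and 31325, 27838 and 25653 on the low-fat arrays. The ratio of the 3' to the 5' control probe set of Gapdh was also lowest on array 3 of each diet, with 0.889 for HF3 and 0.824 for LF3 against 1.04 to 1.23 on the other arrays. These genes and the limit of 10000 were chosen after the values were seen, and whether the ratio bears on them was not tested.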
